A study of Mus musculus with 6 samples.

Results

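Cornification turns the outer cells of the epidermis into a tough, water-tight layer of dead cells. The genes described here are 64 protein-coding genes of that programme among the 52636 gene rows of a count table from sorted thymic epithelial cells. They were chosen by name: all genes whose symbol begins with Sprr or with Lce and a digit, all genes named S100a and a number, and Ivl, Lor, Flg, Flg2, Hrnr, Rptn, Crnn, Tchh, Krtdap, Dmkn, Sbsn, Calm4, Tgm1, Tgm3 and Casp14. Of the 64 genes, 57 lie within a single stretch of chromosome 3, 3 lie side by side on chromosome 7, and the other 4 are Tgm3 on chromosome 2, Casp14 on chromosome 10, Calm4 on chromosome 13 and Tgm1 on chromosome 14. A filter on low counts left 56 of the 64 for testing, among 32496 genes tested in all.

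The libraries were made from thymi of C57BL/6 mice at 6 weeks of age, in a study that looked for surface markers with which subtypes of thymic epithelial cell (TEC) can be isolated. Both sorted populations were medullary TEC (mTEC), positive for the lectin UEA1, low for MHCII and negative for Sca1 and CD63, and CD80 is given as negative in the labels and as low in the paper. The 3 tuft-like libraries came from cells positive for both CD117, the receptor encoded by Kit, and CD66a, the adhesion molecule encoded by Ceacam1. The 3 non-tuft-like libraries came from cells negative for both, a phenotype that may cover more than 1 mTEC subtype. No genetic change or treatment was named for either group. Nothing in the labels says whether the 3 libraries of a group came from separate animals, so the tests measure the spread between libraries, which may be partly technical. The depth on genes ran from 20097617 to 48369825 reads. Of all reads, 34.4%, 36.6% and 52.5% lay on no gene in the 3 non-tuft-like libraries (in replicate order, as in all lists of values here) and 61.6%, 47.6% and 19.7% in the 3 tuft-like libraries.

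In the epidermis, basal keratinocytes stop dividing, move outwards and switch on a timed series of genes. Involucrin, the small proline-rich proteins, loricrin and the late cornified envelope proteins are laid under the cell membrane and cross-linked by transglutaminases, while filaggrin packs the keratin filaments inside. Many of these genes sit together in the epidermal differentiation complex, whose flank holds the S100A family of small calcium-binding proteins. In the thymus, some mTEC that have passed through the Aire-expressing stage take on keratinocyte features and gather in Hassall's corpuscles, and Aire-expressing mTEC also transcribe many genes of other tissues at low level, whereas tuft-like mTEC resemble the chemosensory tuft cells of the gut.

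Genes of the sort markers were looked at first. Ceacam1 was measured at 11.5, 6.58 and 18.1 CPM in non-tuft-like and 174, 179 and 273 CPM in tuft-like libraries (CPM, reads scaled to a common library size with the TMM factors of edgeR), and the tuft cell kinase Dclk1 at 24.8, 23.8 and 36.9 CPM against 1269.9, 1644 and 1839.95 CPM in the same order. Both rose in tuft-like mTEC (log2 fold changes 4.12 and 5.80, FDR 0.000886 and 0.000310). Fold changes throughout are tuft-like over non-tuft-like, from the quasi-likelihood test of edgeR, and a gene is called where the Benjamini-Hochberg adjusted p over all tested genes (FDR) is below 0.05. Kit stood at 185, 176 and 141 CPM against 301, 451 and 433 CPM and its groups did not overlap, but it was not called (log2 fold change 1.24, SE 0.29, FDR 0.0678). Aire, the regulator of ectopic gene expression in mature mTEC, fell by 3.83 on the log2 scale (FDR 0.000334), from 341, 299 and 235 CPM to 19.3, 23.4 and 18.8 CPM. Epcam, an epithelial surface protein, did not separate the groups (229.5, 771 and 929.9 CPM against 248, 784 and 1041 CPM; FDR 1).

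Cornification genes were more abundant in non-tuft-like mTEC. Their summed level was 5991, 7515 and 7593 CPM in the non-tuft-like libraries and 931, 1244 and 2566 CPM in the tuft-like libraries, so the mean of the tuft-like libraries (1580.4 ± 868 CPM, SD, n = 3) was 22.5% of the mean of the non-tuft-like libraries (7033 ± 903 CPM). The highest tuft-like library lay far below the lowest non-tuft-like library. A total of 11 genes fell in tuft-like mTEC (Calm4, Sbsn, Flg, Flg2, Sprr4, Hrnr, Tgm1, Dmkn, Sprr1a, S100a3 and Ivl) and 0 rose, where the same edgeR test called 2.11% of all tested genes, 0.951% as lower and 1.16% as higher. DESeq2 called 18 lower and 1 higher, where it called 5.01% and 5.24% of all genes for which it gave an adjusted p. limma voom called 14 lower and 1 higher, where it called 1.37% and 1.42% of all tested genes. Both tools made more false calls than their FDR allowed on 1 set of simulated counts, so calls that only they make are read with caution. Those counts were drawn from the means and dispersions that edgeR fitted, so they cannot rank the tools. Among the 56 tested genes, 24 were lower in every tuft-like library than in any non-tuft-like library and 2 were higher, against 8.85% and 7.18% of all tested genes. The median log2 fold change was -1.97 for the 56 genes and 0.02 for all tested genes. These counts describe the genes that passed the low-count filter, which a gene could pass through its level in a single population. The genes were also chosen with earlier results of these data known. In bulk libraries, fewer cornifying cells and less of this RNA per cell cannot be told apart.

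**Figure D1:**
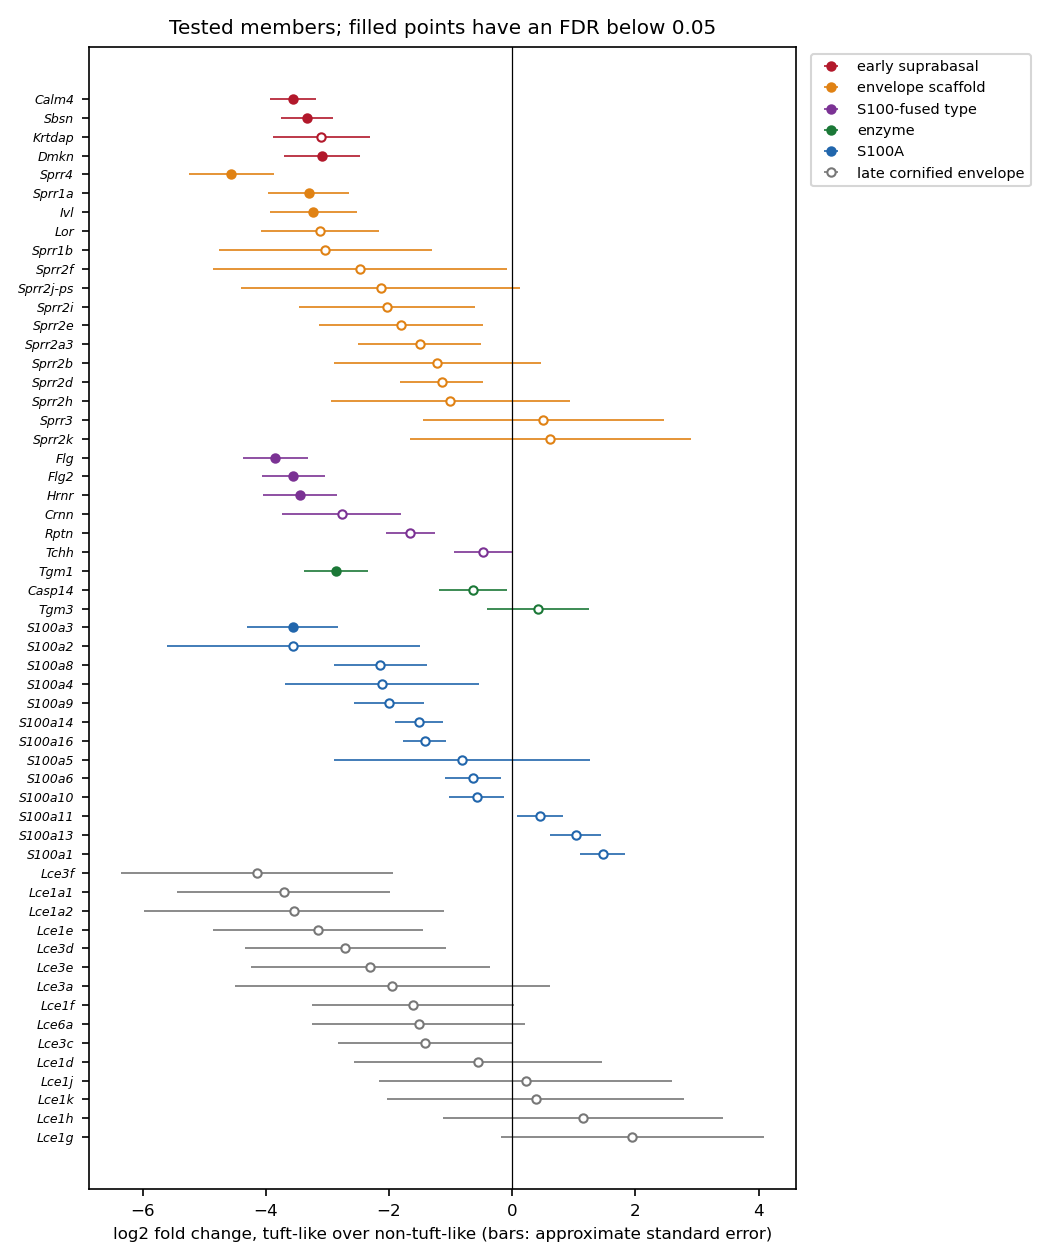
Log2 fold change of each of the 56 tested cornification genes (x axis, tuft-like over non-tuft-like, bars are approximate standard errors), grouped by role along the y axis. The 11 filled points, with an FDR below 0.05, all lie between -4.56 and -2.86, while the late cornified envelope genes have the widest bars and none is filled.

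These calls varied with the libraries used. Calm4 and Sbsn were called under all 16 alternative fits. Leaving out 1 library at a time gave between 6 and 14 genes called lower, fewest without replicate 2 of the tuft-like (6 genes) or of the non-tuft-like libraries (7 genes). Without the 2 libraries with the most reads on no gene (tuft-like replicate 1 and the third non-tuft-like replicate), a setting chosen after the data were seen, Calm4 and Sbsn were called and the other 9 were not, with fold changes in the same direction. For 10 of the 11 genes non-tuft-like replicate 1 was the lowest library of its group, and for 10 of the 11 the highest library of its group was tuft-like replicate 3. The latter library had the fewest reads on no gene. Without it the 11 calls were kept, Krtdap, S100a14 and S100a16 were called too, and the median log2 fold change was -1.79.

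The promoters of the genes that fell are shown because they moved together. Each stretch is the 150 bases before the RefSeq transcription start (GRCm38.p6), written 5′ to 3′ on the gene's strand. Capitals mark matches on either strand to TGANTCA (bound by AP-1 factors), TATAAA (the TATA box), CCACCC (bound by KLF-type factors) or ATGCAAAT (the POU octamer). The 6 shown are those with TGANTCA in the 250 bases before the start: Sprr1a (chr3:92485882-92486031, minus strand), Ivl (chr3:92573736-92573885, minus strand), Flg2 (chr3:93197123-93197272, plus strand), Flg (chr3:93273396-93273545, plus strand), Sbsn (chr7:30751321-30751470, plus strand) and Dmkn (chr7:30763606-30763755, plus strand).
Sprr1a: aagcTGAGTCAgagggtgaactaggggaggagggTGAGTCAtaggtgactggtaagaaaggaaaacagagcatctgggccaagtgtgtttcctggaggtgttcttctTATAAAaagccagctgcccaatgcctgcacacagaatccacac
Ivl: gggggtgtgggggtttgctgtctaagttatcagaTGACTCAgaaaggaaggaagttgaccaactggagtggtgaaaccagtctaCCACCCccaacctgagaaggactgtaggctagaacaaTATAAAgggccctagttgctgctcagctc
Flg2: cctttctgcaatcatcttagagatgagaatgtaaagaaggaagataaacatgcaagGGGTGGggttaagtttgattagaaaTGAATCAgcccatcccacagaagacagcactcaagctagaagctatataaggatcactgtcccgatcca
Flg: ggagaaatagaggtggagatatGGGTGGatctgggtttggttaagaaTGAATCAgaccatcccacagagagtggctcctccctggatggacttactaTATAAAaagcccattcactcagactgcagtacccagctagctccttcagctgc
Sbsn: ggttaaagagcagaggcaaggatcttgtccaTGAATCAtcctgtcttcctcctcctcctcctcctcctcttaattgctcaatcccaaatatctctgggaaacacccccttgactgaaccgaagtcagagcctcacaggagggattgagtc
Dmkn: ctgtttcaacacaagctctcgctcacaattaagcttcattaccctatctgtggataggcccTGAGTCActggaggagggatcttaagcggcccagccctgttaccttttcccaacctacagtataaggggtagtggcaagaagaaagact
Flg, Flg2 and Sbsn carry the same 7 letters, TGAATCA, in the same orientation. Over the 250 bases, TGANTCA was found in 6 of the 11 genes that fell, in 13 of the 40 other tested genes with a promoter in the table, and in 6.87% of 27025 promoters of all genes. TATAAA was found in 4 of 11, 19 of 40 and 12.97%, and CCACCC in 7 of 11, 13 of 40 and 27.68%, and neither overlaps TGANTCA in its letters. ATGCAAAT, the motif of POU factors such as the tuft cell regulator Pou2f3, was found in 0 of 11, 7 of 40 and 1.61%. These 7 are Sprr2 copies (Sprr2b, d, e, f, h, i and k) with the match at nearly the same place, and the same 7 are among the 13 with TGANTCA and the 19 with TATAAA, so related promoters are counted repeatedly among the 40. In all, 59 of the 64 genes had a promoter in the table. A match describes the letters only.

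Genes of the early suprabasal layers held most of the summed level in the non-tuft-like libraries. Krtdap, Dmkn and Sbsn encode secreted proteins of differentiating keratinocytes and are neighbours on chromosome 7 (Sbsn at chr7:30751471-30756134, Dmkn at chr7:30763756-30781063 and Krtdap at chr7:30787896-30791097, mm10), and Calm4 (chr13:3837757-3838673) encodes a calmodulin-like protein of the same cells. Their sum was 3315, 4315 and 4422 CPM in the non-tuft-like libraries and 127, 351 and 846 CPM in the tuft-like libraries. Krtdap, Dmkn and Calm4 together made up 50.6%, 53.2% and 54.2% of the CPM of all 64 genes in the non-tuft-like libraries, but 12.02%, 26.1% and 31.1% in the tuft-like libraries.

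Calm4 was measured at 621, 724 and 861 CPM in non-tuft-like and 38.1, 70.01 and 78.7 CPM in tuft-like libraries. It had the smallest FDR of the 64 genes (log2 fold change -3.56, SE 0.38, FDR 0.000937), and its populations lay far apart. Sbsn stood at 283, 318 and 309 CPM against 15.5, 25.9 and 48.9 CPM, the 3 non-tuft-like libraries being close together and the tuft-like ones all far below (log2 fold change -3.33, SE 0.42, FDR 0.00243). Some 279 of its 3625 exonic bases overlap Tmem147os on the same strand. Dmkn was at 1096, 1558 and 1454 CPM against 50.6, 111 and 322 CPM (log2 fold change -3.09, SE 0.61, FDR 0.0290). Its call was lost without the second non-tuft-like replicate (FDR 0.0674) and without tuft-like replicate 2 (FDR 0.149). Krtdap had the highest level per length of the 64 genes in non-tuft-like mTEC, 2370.02 ± 380.4 CPM per kb of exon (SD, n = 3), and 276 ± 280.3 CPM per kb in tuft-like mTEC. Its libraries stood at 1315, 1715 and 1798 CPM against 23.2, 144 and 396 CPM and did not overlap, with the tuft-like ones far from each other, and it was not called (log2 fold change -3.10, SE 0.79, FDR 0.0917). It was called without tuft-like replicate 1 (FDR 0.0218), without tuft-like replicate 3 (FDR 0.0232) and by DESeq2 (FDR 0.00384).

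**Figure D2:**
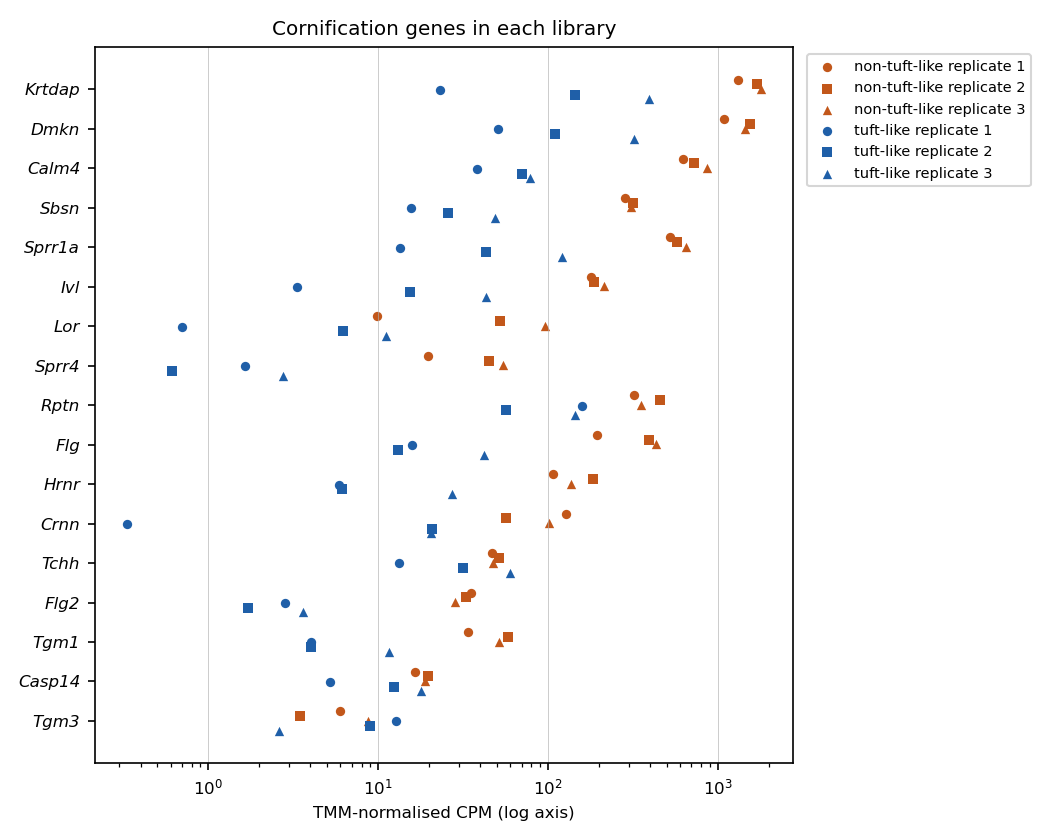
TMM-normalised CPM (x axis, log scale) of the cornification genes named singly by the rule and of the called small proline-rich genes, 1 point per library, with orange for non-tuft-like and blue for tuft-like mTEC and the replicate as the symbol. For Krtdap, Dmkn, Calm4, Sbsn, Sprr1a, Ivl, Sprr4, Rptn, Flg, Hrnr, Crnn, Flg2 and Tgm1 every blue point lies left of every orange point, whereas Lor, Tchh, Casp14 and Tgm3 overlap.

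Of the scaffold proteins of the envelope (involucrin, loricrin and the small proline-rich family), 15 of 17 genes were tested and 3 fell. Their sum was 814, 910.1 and 1067 CPM in the non-tuft-like libraries and 32.4, 104 and 193 CPM in the tuft-like libraries, a mean of 931 ± 128 CPM against 109.8 ± 80.6 CPM (SD, n = 3 each). Sprr1a, a proline-rich bridge between other envelope proteins, carried most of the sum in each non-tuft-like library, but not in each tuft-like library. Sprr1a was at 525, 578 and 654 CPM in non-tuft-like and 13.5, 42.999 and 121 CPM in tuft-like libraries. It fell in tuft-like mTEC (log2 fold change -3.30, SE 0.66, FDR 0.0293), a call lost without tuft-like replicate 2 (FDR 0.116). Ivl, the first scaffold protein to be laid down, was at 178, 188 and 215 CPM against 3.35, 15.4 and 43.1 CPM (log2 fold change -3.23, SE 0.71, FDR 0.0476). Its groups lay apart in every library, yet the call was lost without replicate 2 (FDR 0.0678) or 3 (FDR 0.0620) of the non-tuft-like libraries or replicate 2 of the tuft-like libraries (FDR 0.159).

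Sprr4 (chr3:92500263-92500493) showed the largest fall of the called genes, from 19.8, 44.98 and 54.2 CPM to 1.65, 0.614 and 2.76 CPM (log2 fold change -4.56, SE 0.69, FDR 0.00634). limma voom did not call it (FDR 0.0720). Per kb of exon Sprr1a (726 ± 80.98 CPM per kb), Calm4 (802 ± 131) and Dmkn (625 ± 111) had levels in non-tuft-like mTEC that differed by about their spread, and Sprr4 (172 ± 77.1) and Ivl (101 ± 9.87) lay below them. Loricrin, the bulk protein of the mature envelope, was low by comparison. Lor was at 9.88, 52.1 and 96.4 CPM in non-tuft-like and 0.703, 6.26 and 11.2 CPM in tuft-like libraries, and its lowest non-tuft-like library lay below its highest tuft-like one. Its fold change was as large as that of Ivl but its FDR was 0.187 (-3.12, SE 0.95). It was called in 5 of the 16 alternative fits, with the replicate number as a block (FDR 0.00155) and by DESeq2 (FDR 0.00201) among them. Sprr1b, at 1.86, 4.15 and 4.89 CPM against 0.413, 0.906 and 0 CPM, did not overlap between populations and was not called (FDR 0.827), and Sprr3, at 0.0631, 2.45 and 1.37 CPM against 3.76, 1.75 and 0 CPM, overlapped.

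Sequences of small proline-rich genes are printed to show the repeats of Sprr1a, the most abundant of them, and the Sprr2 copies nearest to Sprr2d. In Sprr1a (GENCODE M21 transcript), bases 223 to 312 of the coding sequence hold the 18-base unit AAGGTGCCAGAGCCCTGC 4 times, in capitals here.
Sprr1a: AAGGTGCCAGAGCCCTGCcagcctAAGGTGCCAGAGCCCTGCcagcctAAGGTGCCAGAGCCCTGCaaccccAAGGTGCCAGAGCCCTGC
In the Sprr2 subfamily the first 90 coding bases of Sprr2d, Sprr2i, Sprr2e and Sprr2b differ at few places, with capitals for bases that differ from Sprr2d.
Sprr2d: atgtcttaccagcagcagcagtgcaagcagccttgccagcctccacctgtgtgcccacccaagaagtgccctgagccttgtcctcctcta
Sprr2i: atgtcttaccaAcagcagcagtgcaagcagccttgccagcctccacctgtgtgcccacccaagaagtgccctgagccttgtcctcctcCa
Sprr2e: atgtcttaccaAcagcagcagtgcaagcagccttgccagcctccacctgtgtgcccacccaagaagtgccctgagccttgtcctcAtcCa
Sprr2b: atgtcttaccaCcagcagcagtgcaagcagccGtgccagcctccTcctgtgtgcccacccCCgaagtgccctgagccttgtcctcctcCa
Over those bases Sprr2i is 97.8%, Sprr2e 96.7% and Sprr2b 93.3% identical to Sprr2d. Other Sprr2 genes matched Sprr2d at fewer positions, down to 81.1% for Sprr2f, 70.0% for Sprr2j-ps and 65.6% for Sprr2k, against 43.3% for Sprr1a. Bases were compared position by position without gaps. A base gained or lost therefore lowers the value, and the ends of Sprr2j-ps and Sprr2k look shifted in this way. Of all 50-base windows of the longest transcript, 96.28% in Sprr2a1, 96.45% in Sprr2a2 and 61.11% in Sprr2a3 occur in another gene, against 4.27% in Sprr2d and 0% in Sprr1a and Sprr4, and 0% of the windows of Sprr1a recur within its own transcript. Values of the Sprr2a copies are therefore uncertain.

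The Sprr2 genes were low in both populations. The sum over 11 of them was 79.5, 41.2 and 41.2 CPM against 9.09, 35.9 and 14.8 CPM, and the populations were apart but close. Sprr2d, the highest of the subfamily per length, stood at 25.6, 9.28 and 11.5 CPM against 3.51, 9.59 and 7.84 CPM and overlapped (FDR 0.857). Sprr2i was at 16.6, 6.37 and 8.07 CPM against 0.248, 7.25 and 0.0552 CPM (FDR 1) and Sprr2e at 10.7, 3.75 and 3.53 CPM against 2.02, 3.07 and 0.0552 CPM (FDR 1). None of the 9 tested Sprr2 genes was called, and 8 had a fold change below 0. Sprr2a1 and Sprr2a2 had too few counts to be tested. Their windows mostly occur in another gene, so these counts may miss much of their RNA.

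Proteins of the S100-fused type carry an S100 domain in front of long repeats, and 3 of the 6 genes fell. Filaggrin, which bundles keratin and is broken down into the moisture-holding compounds of the outer skin, was measured at 193, 392 and 433 CPM in non-tuft-like and 15.8, 13.04 and 41.8 CPM in tuft-like libraries. Flg fell in tuft-like mTEC (log2 fold change -3.85, SE 0.53, FDR 0.00369), with the highest tuft-like library well below the lowest non-tuft-like one. Its relatives Hrnr, which encodes hornerin, and Flg2 fell with it. Hrnr stood at 107, 183 and 137 CPM against 5.87, 6.17 and 27.1 CPM (log2 fold change -3.45, SE 0.60, FDR 0.0146) and Flg2 at 35.3, 32.7 and 28.4 CPM against 2.85, 1.72 and 3.62 CPM (log2 fold change -3.56, SE 0.51, FDR 0.00502). The calls of all 3 held without any single library. Per length these 3 genes were low, at 18.03 ± 6.80, 12.7 ± 3.44 and 1.55 ± 0.167 CPM per kb in non-tuft-like mTEC, and Flg2 lay below the olfactory receptor level (the 99th percentile per kb of 1092 olfactory receptor genes, between 1.26 and 2.78 CPM per kb) in every library. Between 65.35% and 79.22% of the 50-base windows of these transcripts recur within the same transcript, and how such reads were placed was not tested. HTSeq sets reads that align to several places apart from the gene counts, while the repeats stay in the exon length. The levels per kb of these genes, that of Flg2 included, may therefore be too low.

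The other 3 genes of this type did not pass the test. Rptn, for repetin, had the highest level of the 6 per length (91.2 ± 17.3 CPM per kb in non-tuft-like and 28.9 ± 13.3 CPM per kb in tuft-like mTEC). It was at 323, 459 and 352 CPM in non-tuft-like and 159, 56.8 and 144 CPM in tuft-like libraries, with no overlap (log2 fold change -1.66, SE 0.40, FDR 0.0707), and DESeq2 called it (FDR 0.000590). Crnn, for cornulin of squamous epithelia such as the oesophagus, was at 128, 56.9 and 101 CPM against 0.331, 20.9 and 20.6 CPM. Tuft-like replicate 1 was far below the others, and the gene was called when that library was left out (FDR 0.0204) or with no low-count filter (FDR 0.00478). Tchh, for trichohyalin of the hair root sheath, was at 46.7, 51.5 and 47.5 CPM against 13.3, 31.6 and 59.5 CPM. Its tuft-like libraries spanned the non-tuft-like ones (log2 fold change -0.48, FDR 1).

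Of the enzymes, Tgm1 alone fell. Transglutaminase 1 is anchored to the membrane and cross-links the envelope, and its gene (chr14:55700009-55713926) was measured at 33.9, 58.2 and 51.4 CPM in non-tuft-like and 4.05, 4.005 and 11.6 CPM in tuft-like libraries. The populations did not overlap (log2 fold change -2.86, SE 0.52, FDR 0.0174), and the call was lost without replicate 2 of the non-tuft-like (FDR 0.0815) or of the tuft-like libraries (FDR 0.0714). Tgm3, a soluble transglutaminase of the upper epidermis and hair, stood at 5.93, 3.49 and 8.77 CPM against 12.8, 8.97 and 2.60 CPM and overlapped (log2 fold change 0.42, SE 0.83, FDR 1). Casp14, a protease that takes part in filaggrin breakdown, was at 16.4, 19.7 and 18.8 CPM against 5.21, 12.4 and 17.9 CPM, and 1 tuft-like library lay within the non-tuft-like range (log2 fold change -0.63, FDR 1).

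The late cornified envelope family, made last in the epidermis, was low in both populations. Of its 21 genes 15 were tested and 0 were called, also 0 at an unadjusted p under 0.05. Of the 15, 11 had a fold change below 0, and the widest standard errors of the 64 genes were found here. The sum over all 21 genes was 51.1, 32.7 and 93.7 CPM in the non-tuft-like libraries and 36.6, 11.8 and 0.166 CPM in the tuft-like libraries. Tuft-like replicate 3 had no read on 17 of them, against 8, 6 and 3 at 0 in the non-tuft-like libraries and 4 and 6 in the other tuft-like libraries. A count of 0 allows up to 3 reads, between 0.0620 and 0.149 CPM per library before TMM scaling, for counting error only.

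The Lce1 genes summed to 10.002, 9.81 and 84.3 CPM against 23.4, 5.09 and 0.0830 CPM, with non-tuft-like replicate 3 far above the rest. The Lce3 genes, which respond to wounding in skin, summed to 38.97, 19.1 and 6.45 CPM against 10.6, 6.20 and 0.0830 CPM, with non-tuft-like replicate 1 highest and replicate 3 near the tuft-like values. So the library that was highest for Lce1 was the lowest non-tuft-like one for Lce3. Per length the highest genes were Lce3c (10.7, 7.11 and 1.84 CPM against 6.74, 0.585 and 0.0828 CPM; FDR 1), Lce1f (3.60, 3.53 and 14.9 CPM against 6.70, 0.526 and 0 CPM; FDR 1) and Lce1e (1.89, 1.89 and 21.6 CPM against 2.27, 0.585 and 0 CPM; FDR 0.768), each with overlapping groups. Among the Lce3 genes 49.32% of 50-base windows in Lce3d and 48.04% in Lce3f are shared with another gene.

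All 13 genes of the S100A family were tested, 10 had a fold change below 0 and 3 above 0, and 1 was called. The sum was 921, 999.5 and 833 CPM in the non-tuft-like libraries and 516, 622 and 1198 CPM in the tuft-like libraries, and tuft-like replicate 3 exceeded every non-tuft-like library. Of the 13 genes, 7 were lower in every tuft-like library than in any non-tuft-like one and 2 were higher, neither of which was called, against 8.85% and 7.18% of all tested genes. Without the S100A family the summed level of the other 51 genes was 5070.3, 6516 and 6760.2 CPM against 416, 622 and 1368 CPM, which is 13.1% in tuft-like of that in non-tuft-like mTEC.

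S100a3, a protein of the hair cuticle, was the S100A gene that fell. It was at 74.9, 96.3 and 75.2 CPM in non-tuft-like and 12.8, 7.19 and 0.911 CPM in tuft-like libraries (log2 fold change -3.57, SE 0.73, FDR 0.0345), and the libraries did not overlap. The call was lost without replicate 2 of the non-tuft-like (FDR 0.0618) or of the tuft-like libraries (FDR 0.0874), with scaling by library size alone (FDR 0.0766) and with a filter of 1 CPM in 3 libraries (FDR 0.0548). Of its 5660 exonic bases 261 overlap other genes, 1 of them on the other strand, and the counting's strand setting is not given in the sources used here. S100a16 (288, 337 and 269.8 CPM against 72.1, 94.8 and 166 CPM; log2 fold change -1.42, FDR 0.0760) and S100a14 (116, 135 and 117 CPM against 30.1, 26.8 and 72.3 CPM; -1.51, FDR 0.0985), which are epithelial members, did not overlap and were not called. Both were called without tuft-like replicate 3 (FDR 0.00878 and 0.00388).

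S100a1 and S100a13, neighbours at one end of the cluster, were higher in every tuft-like library. S100a1, known from muscle and brain, was measured at 139, 116 and 94.6 CPM in non-tuft-like and 209, 272 and 486 CPM in tuft-like libraries. It had the highest level per length of the 64 genes in tuft-like mTEC (465 ± 209 CPM per kb, against 168 ± 32.3 in non-tuft-like mTEC). It was not called (log2 fold change 1.47, SE 0.36, FDR 0.0783), but was called in 9 of the 16 alternative fits, by DESeq2 for example (FDR 0.000223) and without tuft-like replicate 1 (FDR 0.0262). S100a13, involved in the release of growth factors without a signal peptide, was at 34.4, 29.4 and 21.2 CPM against 38.9, 40.8 and 93.9 CPM (log2 fold change 1.03, FDR 0.414). S100a11, a component of the envelope, was at 125, 144 and 110.3 CPM against 107, 129 and 279.8 CPM. It overlapped, and its fold change of 0.44 turned to -0.14 without tuft-like replicate 3.

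S100a8 and S100a9 form calprotectin, which is abundant in neutrophils and in inflamed epidermis. S100a9 stood at 31.1, 35.3 and 42.7 CPM against 2.81, 10.7 and 13.8 CPM (log2 fold change -1.998, FDR 0.137) and S100a8 at 33.6, 14.4 and 28.7 CPM against 2.40, 12.7 and 2.24 CPM (-2.14, FDR 0.299), without overlap. DESeq2 called both (FDR 0.00613 and 0.0357). Of 12 neutrophil markers 0 were called, with a median log2 fold change of -0.64. Their sum was 52.1, 112 and 52.5 CPM against 56.99, 199.6 and 167 CPM, with Ltf the highest on average (18.9, 89.2 and 9.31 CPM against 34.6, 183 and 162 CPM), which tuft-like replicates 2 and 3 held most of. The granule gene Elane was at 1.55, 0 and 0.604 CPM against 1.53, 0 and 0 CPM and the surface gene Ly6g at 0, 10.2 and 0.763 CPM against 0.909, 0.439 and 0 CPM, both at 0 in some libraries. The part of neutrophils in the calprotectin values was not tested. S100a6 (42.2, 50.7 and 37.03 CPM against 19.4, 14.6 and 49.5 CPM) and S100a10 (31.6, 28.7 and 31.8 CPM against 17.4, 10.8 and 33.6 CPM) overlapped, and the lowest 3 of the family, S100a4, S100a2 and S100a5, had a count of 0 in tuft-like replicate 3. S100a4 shares 302 of its 584 exonic bases with Gm42674, and 41.13% of the windows of S100a11 are shared with another gene.

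**Figure D3:**
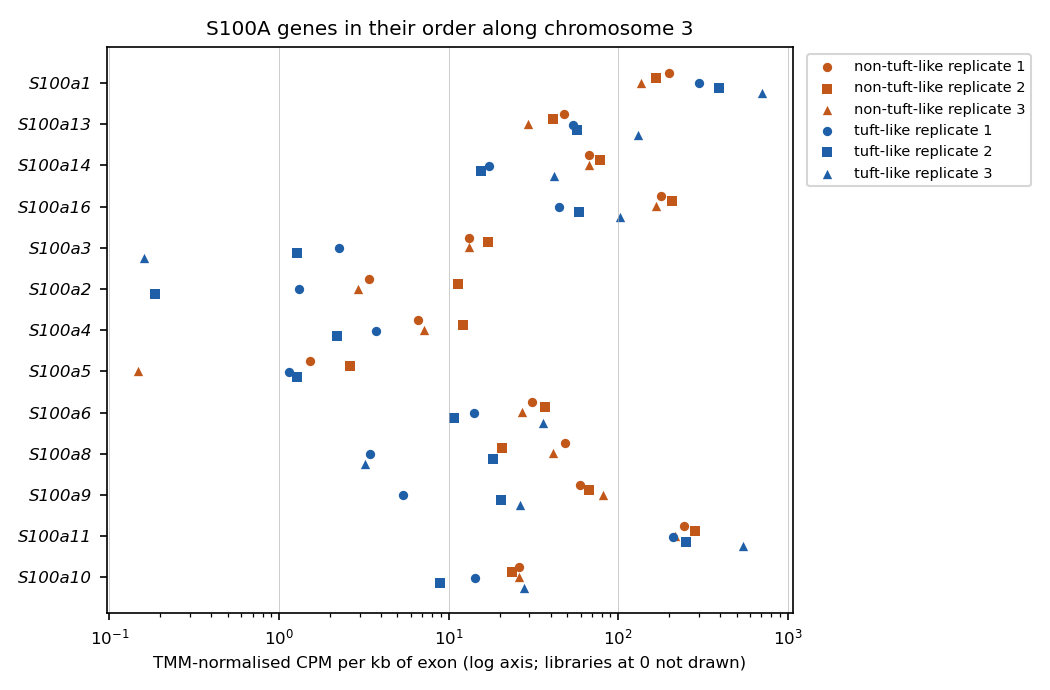
Levels of the 13 S100A genes in TMM-normalised CPM per kb of exon (x axis, log scale), in their order along chromosome 3 from top to bottom, 1 point per library, with libraries at 0 left out. Blue tuft-like points lie right of the orange non-tuft-like points for S100a1 and S100a13, and left of them for S100a14, S100a16, S100a3, S100a2, S100a4, S100a8 and S100a9.

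Position along chromosome 3 was not used to choose the genes, although the names follow the complex. From the first to the last of the 57 genes there the stretch spans 3.054 Mb (chr3:90511034-93564643, mm10). Within it 7 of 49 tested cornification genes were called lower, at a median of -1.80 on the log2 scale, where 0.951% of all tested genes were called lower. The 18 other protein-coding genes inside included 12 that were tested, of which 2 were called lower (2310050C09Rik and Crct1) and 11 had a fold change below 0, at a median of -1.58. In the 1 Mb on either side 1 of 46 tested genes was called lower (Them5), at a median of 0.04. Their summed level, 2287, 2157 and 1792 CPM against 1714, 2035 and 2607 CPM, overlapped between the populations, unlike that of the cornification genes inside (2620.4, 3119 and 3093 CPM against 782, 868 and 1688 CPM).

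**Figure D4:**
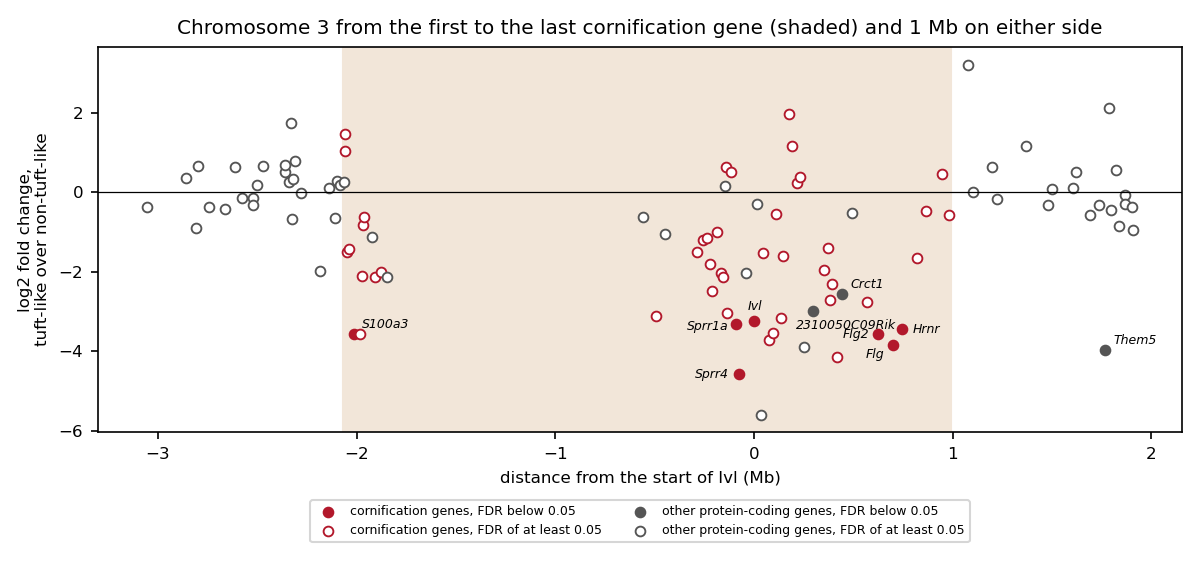
Log2 fold change (y axis, tuft-like over non-tuft-like) of tested protein-coding genes against distance from the start of Ivl in Mb (x axis), with the stretch from the first to the last cornification gene shaded. Most points in the shaded stretch lie below 0 and the 9 filled points there are all negative, while points outside scatter around 0 with Them5 as the 1 filled point.

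Genes that work beside the cornification genes were looked at in lists of keratins, junctions, proteases, lipid enzymes and regulators. Over the 7 lists 34 of 88 tested genes were called lower and 1 higher, against 0.951% and 1.16% of all tested genes. Of these 35 calls, 18 held without each single library in turn. The lists were chosen with earlier results of these data known, so the shares describe the lists and are no independent support. Of 12 cornification keratins 4 fell (Krt14, Krt16, Krt17 and Krt78) and all 12 had a fold change below 0 (median -2.85). Krt17, a keratin of hair follicles and stressed epidermis, was the most abundant, at 5306, 5775 and 6344 CPM in non-tuft-like and 151, 420.3 and 1218 CPM in tuft-like libraries. Its call (log2 fold change -3.28, SE 0.70, FDR 0.0422) was lost without any single non-tuft-like library or tuft-like replicate 2 (FDR between 0.0528 and 0.278) and with the replicate number as a block (FDR 0.123). Krt14, of basal keratinocytes and many mTEC, was at 375, 311 and 277 CPM against 18.02, 29.4 and 38.2 CPM (log2 fold change -3.49, SE 0.36, FDR 0.000885) and Krt16 at 462, 398 and 458 CPM against 11.9, 50.8 and 37.8 CPM (log2 fold change -3.71, SE 0.50, FDR 0.00319). Krt78 was at 125, 132 and 157 CPM against 14.6, 16.5 and 48.8 CPM (FDR 0.0261), a call lost without replicate 2 of either group (FDR 0.0530 and 0.0974). Krt10, a keratin of the first suprabasal layer, was at 92.9, 759.7 and 944 CPM against 21.3, 114 and 412 CPM and overlapped (FDR 0.811).

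Adhesion and shedding genes were partly called. Of 12 genes of desmosomes, the rivets between keratinocytes, 6 fell (Dsc1, Dsc3, Dsg1a, Dsg1b, Perp and Pkp3). Dsg1a, a cadherin of the differentiated layers, was at 133, 212 and 215 CPM in non-tuft-like and 18.7, 20.5 and 22.8 CPM in tuft-like libraries (log2 fold change -3.18, SE 0.31, FDR 0.000689). Dsc3 was at 170.3, 197 and 182 CPM against 32.5, 29.8 and 28.4 CPM (log2 fold change -2.60, SE 0.26, FDR 0.000840) and Perp at 749, 1022 and 1079 CPM against 78.4, 156 and 309 CPM (FDR 0.0308), whereas Jup, for the widespread junction protein plakoglobin, was at 719.9, 877 and 849 CPM against 314, 408 and 648 CPM and did not pass the test (FDR 0.472). With each library left out in turn, Pkp3 was called in 1 of 6 fits, Dsg1b in 3 and Perp in 4. The largest FDR came without tuft-like replicate 2 for Perp (0.176) and Pkp3 (0.153) and without the second non-tuft-like replicate for Dsg1b (0.124). Of 14 desquamation proteases and inhibitors 9 fell (Asprv1, Klk5, Klk7, Klk8, Klk10, Klk13, Klk14, Lypd3 and Spink5). Klk7, a kallikrein that cuts the junctions of the outermost cells, was at 709, 776 and 787 CPM in non-tuft-like and 26.5, 24.6 and 71.3 CPM in tuft-like libraries (log2 fold change -4.21, SE 0.48, FDR 0.00133). Spink5, which encodes the kallikrein inhibitor LEKTI, was at 664, 1043 and 799.6 CPM against 41.2, 85.6 and 197 CPM (log2 fold change -2.95, SE 0.54, FDR 0.0179), and Asprv1, a protease that processes filaggrin, at 643, 842 and 789 CPM against 47.8, 59.7 and 139 CPM (log2 fold change -3.20, SE 0.45, FDR 0.00404). Klk5, the kallikrein that activates Klk7, was at 47.05, 39.1 and 39.4 CPM against 0.703, 2.66 and 3.01 CPM (FDR 0.00404). Leaving out replicate 2 of the tuft-like libraries lost the calls of Spink5 (FDR 0.0946) and Lypd3 (0.0662). The calls of Klk8 (FDR between 0.0566 and 0.169), Klk10 (between 0.0520 and 0.148) and Klk14 (between 0.0624 and 0.207) were each lost without any of 4 single libraries, those of Klk10 and Klk14 also with library size alone (0.0811 and 0.0757) and that of Klk10 with RLE factors (0.0539) and a filter of 1 CPM in 3 libraries (0.0543).

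Of 19 genes for barrier lipids 7 fell (Abca12, Alox12b, Aloxe3, Cers3, Elovl4, Lipm and Sdr9c7). Elovl4, which lengthens the fatty acids of skin ceramides, was at 246, 275 and 323 CPM in non-tuft-like and 24.8, 40.1 and 60.1 CPM in tuft-like libraries (log2 fold change -2.75, SE 0.36, FDR 0.00307). The lipoxygenases Alox12b (62.2, 43.5 and 77.8 CPM against 2.19, 8.56 and 11.02 CPM; FDR 0.0196) and Aloxe3 (52.1, 40.5 and 53.5 CPM against 8.68, 1.99 and 5.27 CPM; FDR 0.0120) act one after the other in the same pathway. Lipm, a lipase of the upper epidermis, was at 109.8, 188 and 166 CPM against 6.78, 13.8 and 19.3 CPM (log2 fold change -3.54, SE 0.43, FDR 0.00180). Leaving out replicate 2 of the tuft-like libraries lost the call of Alox12b (FDR 0.0530). The call of Abca12 was lost without any of 4 single libraries (FDR between 0.0913 and 0.173), with library size alone (0.0765) and with a filter of 1 CPM in 3 libraries (0.0504). That of Cers3 was lost without any of 5 single libraries (FDR between 0.0507 and 0.371), with the replicate number as a block (0.0759) and by limma voom (0.0613). Among other envelope precursors 2 of 9 fell, Cnfn (207, 204 and 178 CPM against 16.3, 18.4 and 29.1 CPM; FDR 0.000839) and the protease inhibitor gene Cst6 (910.1, 1315 and 935 CPM against 186, 128 and 298 CPM; FDR 0.0113, lost without replicate 2 of the non-tuft-like group at 0.0575 and of the tuft-like group at 0.0971), and Anxa1 overlapped (471, 827 and 454 CPM against 596, 764 and 1402 CPM). Among other genes of the complex 1 of 6 tested fell, Crct1 (53.8, 54.03 and 55.3 CPM against 6.94, 9.06 and 11.6 CPM; FDR 0.00393), while Kprp had 1 tuft-like library near 0 (136, 93.8 and 181 CPM against 12.9, 14.5 and 0.138 CPM; FDR 0.113).

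Of 16 regulators of epidermal differentiation 5 fell (Gata3, Grhl1, Ovol1, Prdm1 and Vdr) and 1 rose (Pou2f3). In all, 14 had a fold change below 0 and 2 above 0 (Pou2f3 and Klf4), with a median of -0.96. The call of Ovol1 was lost without any of 4 single libraries (FDR between 0.0888 and 0.258) and with the replicate number as a block (0.0557). The call of Grhl1 was lost without tuft-like replicate 2 (FDR 0.0585) and that of Pou2f3 without the second non-tuft-like replicate (FDR 0.0653). Prdm1, a repressor active in granular keratinocytes, was at 49.3, 36.9 and 39.2 CPM in non-tuft-like and 2.56, 6.02 and 3.23 CPM in tuft-like libraries (log2 fold change -3.40, SE 0.48, FDR 0.00427). Grhl1, which controls desmosomal cadherins, was at 159, 261 and 232 CPM against 32.6, 44.5 and 67.1 CPM (log2 fold change -2.18, SE 0.35, FDR 0.00922), and Vdr, the vitamin D receptor, at 150.1, 208 and 171 CPM against 40.7, 49.5 and 53.96 CPM (log2 fold change -1.88, SE 0.28, FDR 0.00557). Trp63, the master regulator of stratified epithelia, was at 112, 203 and 158 CPM against 26.4, 31.2 and 85.2 CPM and did not overlap, but was not called (FDR 0.107). Klf4, needed for the skin barrier, was at 92.2, 90.8 and 96.8 CPM against 118, 151 and 300.2 CPM and lay in the other direction without being called (log2 fold change 1.02, FDR 0.291). Pou2f3, found in both keratinocytes and tuft cells, was at 125, 117 and 113 CPM against 356, 514 and 707 CPM (log2 fold change 2.15, SE 0.33, FDR 0.00707).

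**Figure D5:**
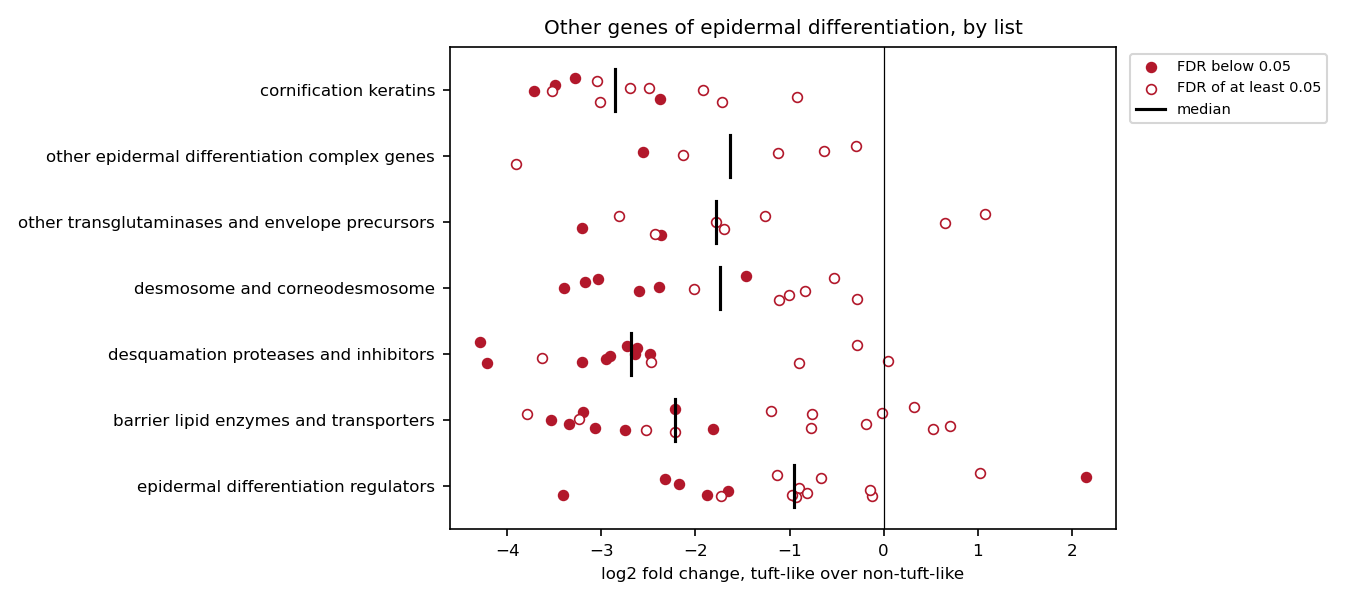
Log2 fold change (x axis, tuft-like over non-tuft-like) of each tested gene in 7 lists of epidermal differentiation genes (y axis, points spread vertically for legibility), with filled points for an FDR below 0.05 and a black line at the median. All 7 medians are negative, from -2.85 for keratins to -0.96 for regulators, and the 1 filled point above 0 is Pou2f3.

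Markers of other cells moved beside these genes as follows, and their part in the results was not tested. All 8 tuft cell genes rose in tuft-like mTEC (median 4.34; sum 668, 732 and 572 CPM against 9280.02, 13387 and 15213 CPM, Avil highest on average), and none was at 0 in the non-tuft-like libraries. Of 6 genes of Aire-expressing mature mTEC 4 fell (Aire, Fezf2, Cd40 and H2-Aa; sum 2568, 2679 and 2109 CPM against 339.8, 434 and 776 CPM, H2-Aa highest on average). Of 8 general TEC genes Foxn1 and Krt14 fell, while Krt8, the most abundant, did not separate the groups (2879.8, 2573 and 1942 CPM against 2609, 3594 and 5569 CPM; FDR 0.968). Of 5 oesophageal genes tested, 3 of them cornification genes described above, 0 were called, and Krt4 was at 27.4, 28.6 and 26.2 CPM against 7.77, 5.64 and 0.0828 CPM. The hair markers summed to 18.8, 35.4 and 22.9 CPM against 15.3, 12.2 and 5.80 CPM, with Krt71 the highest, and 0 of 8 were called, and several of them were at 0 in tuft-like replicate 3 (4 of 8). The melanocyte and Langerhans cell markers summed to 14.04, 11.2 and 11.4 CPM against 13.6, 7.16 and 1.44 CPM, Pmel highest on average, with 0 of 5 called and Cd207 at 3.34, 3.11 and 0.318 CPM against 0.0827, 0.117 and 0 CPM. Macrophage and dendritic cell genes summed to 356, 319 and 232 CPM against 222, 157 and 197 CPM, Lyz2 highest on average, and 1 of 8, Cd68, fell. Thymocyte (17.2, 33.7 and 33.3 CPM against 69.1, 48.8 and 16.5 CPM, Ptprc highest on average), fibroblast (46.1, 47.1 and 69.03 CPM against 133, 83.4 and 38.8 CPM, Dcn highest on average) and endothelial (13.9, 28.8 and 31.8 CPM against 195, 33.8 and 6.02 CPM, Pecam1 highest on average) genes had 0 calls among 7, 6 and 5 tested.

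Levels were also set beside those of the 1092 olfactory receptor genes. Taking the 99th percentile per kb of those genes in each library, 37 of the 64 genes lay above it in all 3 non-tuft-like libraries and 17 did so in all 3 tuft-like libraries. The early suprabasal genes were above it in all libraries (4 of 4), S100A genes in 12 of 13 and 9 of 13, and Lce genes in 5 of 21 and 0 of 21. Of the 11 genes that fell 10 were above it in all non-tuft-like and 5 in all tuft-like libraries. This percentile was highest in replicate 1 of the tuft-like (2.78 CPM per kb) and replicate 3 of the non-tuft-like libraries (2.74 CPM per kb) and lowest in tuft-like replicate 3 (1.26 CPM per kb). The number of the 64 genes with no read was 11, 8 and 4 in the non-tuft-like and 5, 6 and 28 in the tuft-like libraries. Tuft-like replicate 3 thus had the most genes at 0 although it was the second deepest library, and it also had the fewest genes with any read in the whole table (24233, against 32670 to 44068 in the other 5).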

How the data were processed

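RNA came from 6 sorted mTEC libraries, 3 in each group, made with a kit for very low input (the paper names sorting into trizol and the labels a column kit). Before deposit the authors used Trimmomatic 0.36 for trimming and mapped to mm10 with STAR 2.7.3a, and the whole, unnormalized counts per gene that they deposited are from HTSeq in its intersection-nonempty mode. The strand setting and annotation release are not given in the sources used here. Identifiers were matched to GENCODE M21, which named 99.72% of 52636 gene rows. The 147 unmatched rows held 0.016% of the counts. The 5 HTSeq rows of reads on no single gene were left out, as were the 92 spike-in rows, which held no reads.

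The low-count filter was filterByExpr with a count of at least 10 and a total of at least 15. The test was the quasi-likelihood F-test of edgeR 4.0.16 in R 4.3.3 after TMM normalization, over all 32496 genes kept, without covariates. Standard errors were taken as the absolute log2 fold change over the square root of F. With 3 libraries a group an exact permutation test of 1 gene cannot give a two-sided p below 0.10, so none is reported. Levels are TMM-normalized CPM, per kb of merged exons where genes are compared. No 2 libraries had equal counts for more than 0.285% of genes over 100 counts. On 1 set of counts simulated from the edgeR fit the quasi-likelihood test kept to its FDR. DESeq2, the likelihood ratio and exact tests and limma voom made more false calls there than theirs allowed. Counts drawn from the fit of 1 tool cannot rank the tools. Krt85 and Eppk1, held by the marker and envelope lists, were not analysed here, and 2 genes of the other lists are not reported here.

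Alternatives were RLE factors, library size alone, DESeq2 1.42.0, limma voom 3.58.1, the likelihood ratio and exact tests, 2 other filters, a replicate block, a stricter FDR and each library left out, and, added after the data were seen, the 2 libraries with most reads on no gene left out together. Intervals and floors cover counting error only. The genes, lists and tests were chosen with earlier results of these data known. Values per library are given for members that were called, the 3 highest per kb in each role, those the selection names one by one, and, of the other lists, examples of the called genes and the 2 highest per kb. Sprr1b, Sprr3, the Sprr2 genes, the other S100A genes, Trp63, Klf4, Them5, 2310050C09Rik and the marker genes described singly were named after their values were seen.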

Additional observations from a re-analysis of the deposited data

Results flagged for a closer look

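Reads outside the genes compared were looked at for a signal. Sprr2g, annotated as a polymorphic pseudogene and so outside the protein-coding genes, had 11, 0 and 49 reads in the non-tuft-like and 6, 17 and 0 reads in the tuft-like libraries, so its highest count was 49 and its groups overlapped. Sprr2c-ps, a processed pseudogene, had 0, 0 and 7 reads against 15, 8 and 0 reads, with a highest count of 15. Both counts exceed the 3 reads that a count of 0 allows. The share of reads on no gene, which enter no comparison, was highest in replicate 1 of the tuft-like group, at 61.6%, and lowest in its replicate 3, at 19.7%.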

How the results depend on the processing

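The count of all genes called, 687, was 1045 with library size alone, 1904 with DESeq2, 1236 with the likelihood ratio test, 1167 with the exact test, 1127 with no filter, 319 at an FDR of 0.01, 325 without both libraries with most reads on no gene, and between 376 and 922 with 1 library left out. Cornification genes called lower, 11, were 18 with DESeq2 and with no filter, 17 with the likelihood ratio test, 5 at an FDR of 0.01, 2 without both those libraries, and between 6 and 14 with 1 library left out, fewest without replicate 2 of either group. Their median log2 fold change of -1.97 was -2.68 with limma voom, -2.89 with the replicate number as a block, and between -2.58 and -1.74 with 1 library left out. Calls lower over the other epidermal lists, 34, were 52 with DESeq2, 53 with no filter, 17 at an FDR of 0.01, 14 without both libraries, and between 19 and 47 with 1 library left out. The cause of these shifts was not tested. Over 29 cornification genes and the 35 called genes of the other lists, with 16 alternatives each, 1024 values were tried, of which 871 kept direction and side of the threshold, 100 lost the call, 52 gained it and 1 reversed. The reversal was S100a11, between -0.14 without tuft-like replicate 3 and 0.70 without tuft-like replicate 1. Leaving out tuft-like replicate 1 moved the median over all genes to -0.20 on the log2 scale, limma voom to -0.17, and leaving out the third replicate of the non-tuft-like or of the tuft-like libraries to 0.15 and 0.14, against 0.02.

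Same-numbered libraries did not deviate together (correlations of -0.156, -0.061 and -0.326). Because libraries of the same number also differed in their share of reads on no gene, this cannot show whether the numbers pair the samples. With the replicate number as a block 737 genes and 13 cornification genes were called, all 11 and also Krtdap and Lor, and 45 genes of the other lists were called lower. A gene at 0 in a library could hold up to 3 reads there.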
